A study of Homo sapiens with 6 samples.

Results

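The genes described here are the inflammatory chemokines CXCL1, CXCL2, CXCL3, CXCL8, CCL2, CCL5 and CCL20 and the interleukin-1 cytokines IL1A and IL1B. They were selected by name, as every probe set whose annotated gene symbol was on a list of 10 such genes. Of these, 9 genes were measured, by 16 of the 54613 probe sets that are not controls, and the remaining gene was not analysed here. In all, 19775 genes were measured. The samples were 3 knockdown clones, single clones of MDA-MB-231 cells that stably carried a retroviral pSM2 short hairpin vector against WASF3, and 3 control clones of the same line that carried the empty vector or a hairpin against GFP. All 6 had been infected and selected with puromycin, were labelled as passage 4, and gave 1 array each. The labels do not say which hairpin or control vector each clone carried, and each clone grew from a single cell, so a difference between clones may belong to the clone as well as to the hairpin. MDA-MB-231 is an established human breast cancer line, and WASF3 encodes an actin regulator of the WAVE family that is needed for invasive movement.

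IL1A and IL1B are alarm cytokines that bind the receptor IL1R1 with its partner IL1RAP and, through MYD88 and the IRAK kinases, activate the transcription factor NF-kB. NF-kB in turn induces the chemokines of this group and IL1B itself. CXCL1, CXCL2, CXCL3 and CXCL8 attract neutrophils through CXCR1 and CXCR2, CCL2 attracts monocytes, CCL5 attracts T cells, and CCL20 attracts cells that carry CCR6. MDA-MB-231 cells are known for constitutive NF-kB activity and for secreting CXCL8.

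The 4 CXC chemokine genes lie in one cluster on chromosome 4. CXCL3 and CXCL2 are neighbours with 0 protein-coding genes between them, and CXCL8 and CXCL1 have 2 between them in the RefSeq order. IL1A and IL1B are also direct neighbours, on chromosome 2. The bases from 100 to 41 before the start site of the 4 CXC genes are shown because they hold the NF-kB-like letters that these genes share, in capitals (RefSeq promoters, build GRCh38.p14, printed 5′ to 3′ on the strand of the gene). The stretches are at chr4:73869293-73869352, plus strand, at chr4:74099236-74099295, minus strand, at chr4:74038730-74038789, minus strand, and at chr4:73740469-73740528, plus strand.
CXCL1: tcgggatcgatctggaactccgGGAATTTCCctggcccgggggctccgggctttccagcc
CXCL2: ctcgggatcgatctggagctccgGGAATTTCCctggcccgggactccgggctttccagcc
CXCL3: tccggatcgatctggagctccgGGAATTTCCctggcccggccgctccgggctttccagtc
CXCL8: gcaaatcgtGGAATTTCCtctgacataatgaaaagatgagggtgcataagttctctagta

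The motif searched was GGANNTTCC on both strands, where N is any base, over the 250 bases before and 50 bases from the start site. It was found in 4 of the 8 promoters matched, which belong to 7 of the 9 measured genes (IL1A has 2 start sites), against 4.56% of 35116 promoters of the same length. All 4 matches read GGAATTTCC, at −78 in CXCL1, −77 in CXCL2, −78 in CXCL3 and −91 in CXCL8, counted from the base before the start site as −1. The promoters of CXCL1 and CXCL3 were identical at 68.7% of their positions, those of CXCL1 and CXCL2 at 51.7%, and those of CXCL1 and CXCL8 at 25.0%. Bases were compared at equal distance from the start site without gaps, so inserted or deleted bases lower these shares. The IL1B and IL1A promoters are shown because the neighbouring genes differed most between the clones, with matches of the AP-1 motif TGANTCA (both strands, in 7.71% of promoters) in capitals. The IL1B sequence, at chr2:112836730-112837029 on the minus strand, held neither motif, and the IL1A sequence, at chr2:112784351-112784650 on the minus strand for the downstream start site, held AP-1 matches at −105 and −55. A match of letters is a description and not a binding site.
IL1B: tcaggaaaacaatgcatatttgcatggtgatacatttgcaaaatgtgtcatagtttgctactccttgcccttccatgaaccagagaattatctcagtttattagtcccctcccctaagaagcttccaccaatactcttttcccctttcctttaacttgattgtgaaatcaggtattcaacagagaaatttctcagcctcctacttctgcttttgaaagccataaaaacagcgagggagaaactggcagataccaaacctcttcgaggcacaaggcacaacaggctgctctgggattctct
IL1A: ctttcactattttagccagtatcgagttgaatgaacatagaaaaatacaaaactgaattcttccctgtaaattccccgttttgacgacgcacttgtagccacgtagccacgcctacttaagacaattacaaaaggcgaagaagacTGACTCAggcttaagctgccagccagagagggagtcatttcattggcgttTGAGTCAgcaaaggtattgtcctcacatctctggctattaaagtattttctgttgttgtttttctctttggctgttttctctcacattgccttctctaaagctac

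Across the 9 genes, IL1B had the largest difference between the groups. IL1A had the largest spread among the knockdown clones, on 1 of its probe sets and not on the other. Knockdown clones 1 and 2 read far below all control clones for IL1B, while clone 3 lay close to the controls. CXCL8 was also below all control clones in clones 1 and 2, on 1 of its probe sets by little in clone 2. No gene of the group passed the test over all probe sets (limma, adjusted p under 0.05), and 0 rose and 0 fell. Among all genes the test called 0.319% higher and 0.42% lower, or 0.738% in all. At an unadjusted p under 0.05 there were 2 of the 9 genes lower, IL1B and CXCL8, and 0 higher, against 7.67% of all genes lower and 9.11% higher. The knockdown mean was the lower one for 7 of the 9 genes, against 52.4% of all genes. The median change of the 9 genes was −0.22 on the log2 scale, and that of all genes was −0.01. Values are log2 RMA signals as deposited, and a difference is the knockdown mean minus the control mean, followed by its standard error (SE) from limma. Each group has 3 clones, and p-values measure the spread between these clones.

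Some facts of the arrays bear on all values below. WASF3 read 5.40, 5.80 and 4.52 in knockdown clones 1, 2 and 3, which is 43.8%, 57.5% and 23.8% of the control mean (adjusted p = 0.102 in limma). An index of RNA quality, the mean 3′ minus 5′ signal of the GAPDH and ACTB control probe sets, was 2.11, 1.62 and 1.66 in knockdown clones 1, 2 and 3, and 1.13, 1.47 and 1.26 in control clones 1, 2 and 3. It was highest in knockdown clone 1 and higher in every knockdown than in any control clone (exact permutation p = 0.1, the smallest that 3 against 3 allows). The labelled cell line was checked on its markers: the 6 transcripts known as abundant in it, VIM and CD44 among them, had group means from 10.8 to 14.1 in knockdown clones and from 10.3 to 14.3 in control clones. Among them S100A4 read 12.63, 10.52 and 10.44 in knockdown clones 1, 2 and 3 and 12.76 to 12.81 in control clones (adjusted p = 0.242 in limma). EGFR read 10.42, 10.60 and 11.43 in knockdown clones and 10.28 to 10.33 in control clones (adjusted p = 0.393). On its next brightest probe sets knockdown clone 1 was below the controls. These read 10.34, 10.56 and 10.75 in knockdown clones against 10.35 to 10.37 in control clones, and 8.07, 8.79 and 10.96 against 8.34 to 8.50. The dimmer EGFR probe sets varied in direction. Of 6 markers of luminal or epithelial cells that this line is known to lack, FOXA1 and PGR were dim, no higher than 3.56 in knockdown clones and 3.39 in control clones. Others were brighter. GATA3 read 7.76, 6.89 and 6.70 in knockdown clones 1, 2 and 3 and 7.28 to 7.48 in control clones, and CLDN3 read 6.44 to 6.77 in knockdown clones and 6.28 to 6.41 in control clones. The oestrogen receptor ESR1 read 5.66 to 5.80 in knockdown clones and 5.70 to 6.11 in control clones. These are readings of the brightest probe set of each gene. The other GATA3 probe sets read 3.33 to 4.37 in knockdown clones and 3.62 to 4.19 in control clones. The other one of CLDN3 read 3.56 to 4.33 in knockdown clones and 3.97 to 4.42 in control clones. Those of ESR1 ranged from 2.54 to 5.86 in knockdown clones and from 2.52 to 5.89 in control clones. The epithelial cadherin CDH1 read 7.33 in knockdown clone 1, against 4.44 and 4.47 in knockdown clones 2 and 3 and 4.59 to 5.19 in control clones. Its other probe set showed no rise in clone 1, at 3.79, 3.83 and 4.11 in knockdown clones 1, 2 and 3 and 3.87 to 4.10 in control clones. The summed signal of 9 leukocyte markers was between 8.05 and 8.17 in knockdown clones and between 8.17 and 8.26 in control clones on the log2 scale, with PTPRC, the defining leukocyte marker, at 3.11 to 3.36 in knockdown clones and 3.05 to 3.41 in control clones. That of 12 fibroblast and endothelial markers was between 9.04 and 9.25 in knockdown clones and between 9.27 and 9.29 in control clones. The part of these values in the results was not tested.

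**Figure D1:**
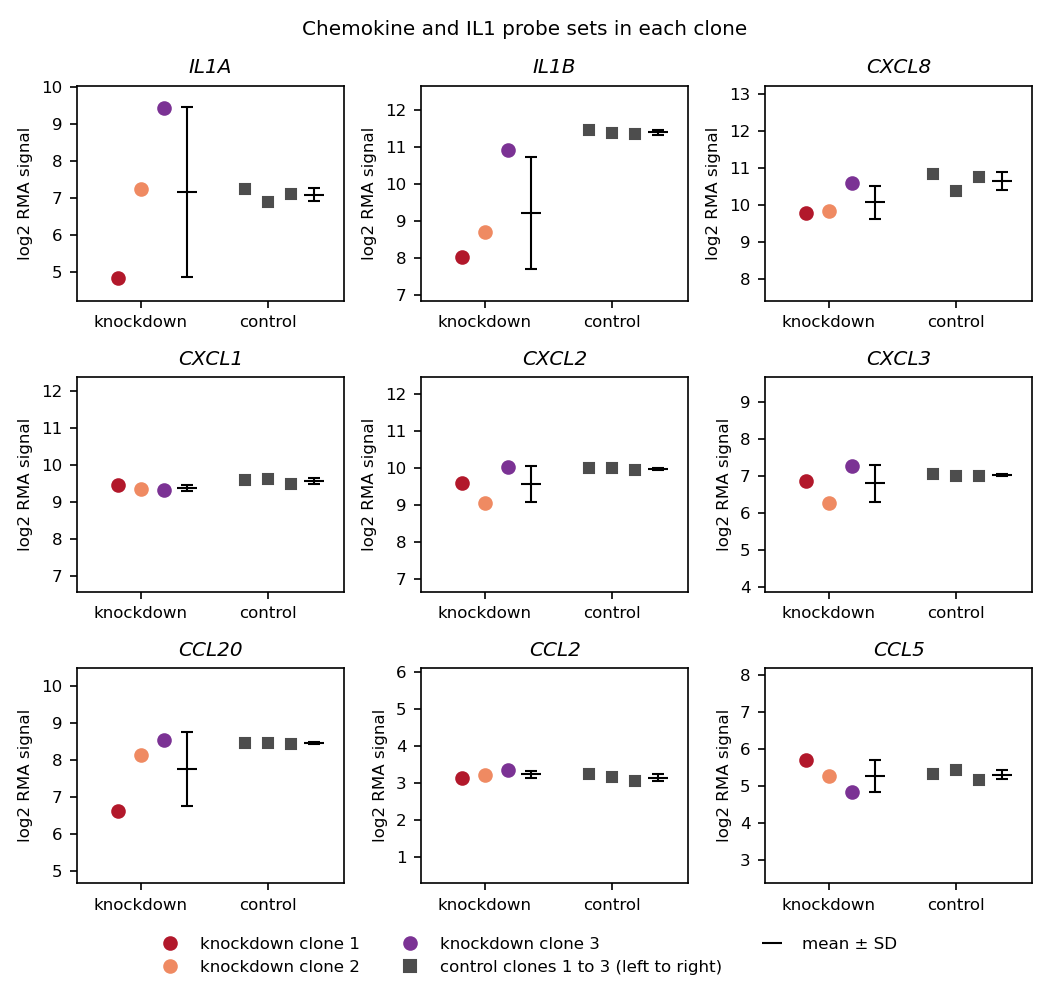
Log2 RMA signal of each gene (its probe set with the highest mean) in knockdown clones 1 to 3 (coloured circles) and control clones 1 to 3 (grey squares), with the mean ± SD of each group; every panel spans the same number of log2 units. IL1A and IL1B are widely spread in knockdown clones, at 4.81 to 9.41 and 8.05 to 10.92, while their control clones lie within 0.34 and 0.11 of each other.

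IL1B, which encodes the secreted interleukin-1β, read 8.05, 8.71 and 10.92 in knockdown clones 1, 2 and 3, against 11.47, 11.38 and 11.37 in control clones 1, 2 and 3. Every knockdown clone was below every control clone, and knockdown clones 1 and 2 were far below while clone 3 was near. The second probe set of IL1B showed the same order, at 8.11, 8.56 and 10.72 in knockdown clones and 11.17, 11.08 and 11.09 in control clones. Relative to the control mean, 9.74%, 15.4% and 71.4% of the signal was left in knockdown clones 1, 2 and 3 on the brighter probe set, and 12.5%, 17.0% and 76.1% on the other. The mean difference was −2.18 (SE 0.64, 95% interval −3.68 to −0.69) and did not pass (adjusted p = 0.191 in limma, and exact permutation p = 0.1). The other probe set gave −1.98 (SE 0.59, adjusted p = 0.200). A larger SD among knockdown clones was seen in 68 of the 54613 probe sets. With each clone left out in turn, the difference passed in 1 of the 6 fits, that without knockdown clone 3 (−3.03, adjusted p = 0.00213, and −2.78 with adjusted p = 0.00130 on the other probe set). With a covariate for RNA quality it was −0.87 (adjusted p = 0.758); the part of RNA quality was not tested further. The clone with the lowest WASF3 signal, clone 3, was the one in which IL1B was closest to the controls.

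IL1A, whose product is active inside the cell and when released from dying cells, differed between clones in both directions. This was seen on its brighter probe set only, which is of a type that may match more than one transcript. That probe set read 4.81, 7.23 and 9.41 in knockdown clones 1, 2 and 3, against 7.23, 6.89 and 7.11 in control clones 1, 2 and 3. Knockdown clone 1 was below all controls, clone 2 was level with control clone 1, and clone 3 was above all controls. These values are 20.9%, 111% and 506% of the control mean. The group means therefore hardly differed, at 7.15 ± 2.30 in knockdown and 7.08 ± 0.17 in control clones (SD, n = 3 each). The difference of 0.08 (SE 0.98, adjusted p = 0.984 in limma) had a 95% interval of −2.20 to 2.36, which leaves large changes either way possible. Its sign depended on single clones, at 1.25 without knockdown clone 1 and −1.05 without knockdown clone 3. With the covariate for RNA quality it was 2.85 (SE 1.16, adjusted p = 0.387), beyond that interval. The knockdown SD of 2.30 was exceeded by 11 of the 54613 probe sets. The second probe set of IL1A read 4.78 to 5.04 in knockdown clones and 4.80 to 5.06 in control clones and showed none of this spread. On their brighter probe sets IL1A and IL1B, although adjacent on the chromosome, stood apart in knockdown clone 3. There IL1A was 2.34 above and IL1B 0.49 below its control mean on the log2 scale.

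CXCL8, the neutrophil chemokine also known as interleukin-8, was represented by a pair of probe sets, both of a type that may match more than one transcript. On the brighter one it read 9.80, 9.86 and 10.61 in knockdown clones 1, 2 and 3, against 10.85, 10.39 and 10.76 in control clones 1, 2 and 3. Knockdown clones 1 and 2 were below every control clone and clone 3 lay inside the control range, so the groups overlapped. The difference was −0.58 (SE 0.23, 95% interval −1.11 to −0.04, adjusted p = 0.317 in limma). On the other probe set CXCL8 read 6.46, 7.64 and 8.30 in knockdown clones, against 9.20, 7.81 and 8.96 in control clones. Here the control clones also spread widely, with clone 2 low, and the difference was −1.19 (SE 0.51, adjusted p = 0.355). Without knockdown clone 3 the brighter probe set passed (−0.83, adjusted p = 0.0242) and the other did not (−1.61, adjusted p = 0.0968). With the covariate for RNA quality, the difference on the brighter probe set was −0.08 (adjusted p = 0.949).

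CCL20, the ligand of CCR6, read 6.63, 8.14 and 8.54 in knockdown clones 1, 2 and 3, against 8.47, 8.48 and 8.43 in control clones 1, 2 and 3. Knockdown clones 1 and 2 lay below every control clone, clone 1 by far more, and clone 3 lay just above them. These values are 28.1%, 80.3% and 106% of the control mean. The difference was −0.69 (SE 0.43, 95% interval −1.70 to 0.32, adjusted p = 0.543 in limma), and without knockdown clone 1 it was −0.12. With the RNA quality index, which is highest in clone 1, as a covariate it turned to 0.62 (adjusted p = 0.627).

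CXCL2 and CXCL3 were lowest in knockdown clone 2 rather than clone 1. CXCL2 read 9.60, 9.07 and 10.04 in knockdown clones 1, 2 and 3, against 10.00, 9.99 and 9.94 in control clones 1, 2 and 3. CXCL3 read 6.87, 6.26 and 7.27 in knockdown clones, against 7.04, 7.01 and 7.01 in control clones. In both genes clones 1 and 2 lay below the control range and clone 3 above it, with 53.1% of the control mean left in clone 2 for CXCL2 and 59.2% for CXCL3. The differences were −0.41 for CXCL2 (SE 0.22, 95% interval −0.92 to 0.11, adjusted p = 0.471) and −0.22 for CXCL3 (SE 0.23, −0.75 to 0.31, adjusted p = 0.734), both in limma. Without knockdown clone 2 that of CXCL3 was 0.049. These neighbouring genes are close relatives of each other and of CXCL1, and the CXCL2 probe set is of a type that may match related transcripts, so their separate values are uncertain. The remaining probe sets of CXCL2 read 3.21 to 4.91 in knockdown clones and 3.28 to 4.48 in control clones, with differences of 0.21 and 0.01.

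CXCL1 was nearly level in all clones, at 9.47, 9.35 and 9.33 in knockdown clones 1, 2 and 3, against 9.61, 9.62 and 9.47 in control clones 1, 2 and 3. The knockdown values were all below the control values, but by little: clone 1 of the knockdown and clone 3 of the control were within 0.01 of each other. The difference was −0.18 (SE 0.09, 95% interval −0.39 to 0.03, adjusted p = 0.427 in limma), and −0.29 (adjusted p = 0.491) with the covariate for RNA quality. The whole interval without that covariate is small beside the differences of IL1B in clones 1 and 2. Its knockdown clones had an SD of 0.07, against 0.49 for CXCL2 and 0.51 for CXCL3. With IL1B it is the gene of this group whose groups did not overlap, 2 of 9 lower and 0 higher, while across all genes 12.6% were lower and 12.1% higher without overlap.

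CCL2 was dim in every clone. It read 3.12 to 3.33 in knockdown clones and 3.04 to 3.22 in control clones, a level below which 14.3% of probe sets lay, and the table gives no detection call, so no signal over background can be claimed (difference 0.09, SE 0.10, adjusted p = 0.758 in limma). With the covariate for RNA quality the difference was 0.22 (adjusted p = 0.622). The brightest of 3 probe sets of CCL5 read 5.70, 5.25 and 4.84 in knockdown clones 1, 2 and 3, against 5.31, 5.41 and 5.16 in control clones 1, 2 and 3. On it CCL5 was above the control range in knockdown clone 1, where IL1A, IL1B and CCL20 were lowest, inside it in clone 2 and below it in clone 3, at 132%, 97.0% and 72.8% of the control mean. The difference was −0.03 (SE 0.20, 95% interval −0.51 to 0.44, adjusted p = 0.963), and −0.57 (adjusted p = 0.430) with the covariate for RNA quality. The other probe sets gave 0.14 and 0.05 at levels from 2.92 to 4.70 in knockdown clones and from 2.84 to 4.55 in control clones.

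**Figure D2:**
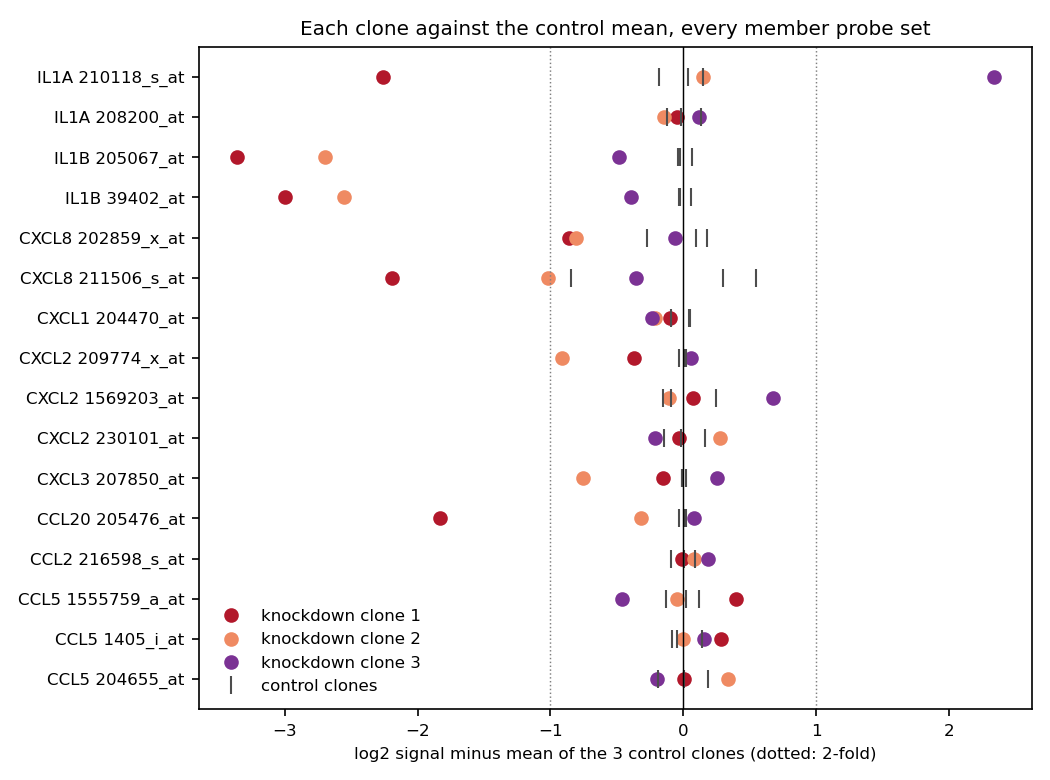
Log2 signal of each knockdown clone (coloured circles) and each control clone (grey ticks) minus the mean of the control clones, for all 16 probe sets of the 9 genes; dotted lines mark a 2-fold difference. Both IL1B probe sets place knockdown clones 1 and 2 between −3.36 and −2.56 and clone 3 at −0.49 and −0.39, and 1 IL1A probe set spans −2.26 to 2.34.

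Clone by clone, most of the 9 genes lay below the controls in clones 1 and 2 and fewer did in clone 3. In knockdown clone 1, 8 of the 9 genes were below the control mean, with a median difference of −0.37 on the log2 scale. In clone 2 there were 7 and the median was −0.32, and in clone 3 there were 4 and the median was 0.06. Of all genes, 49.4%, 52.7% and 53.3% were below the control mean in clones 1, 2 and 3. The medians of all genes were 0.00, −0.02 and −0.02 in clones 1, 2 and 3. Counted on the brightest probe set of each gene, those at least 2-fold below the control mean numbered 3 in clone 1 (IL1A, IL1B and CCL20), 1 in clone 2 (IL1B) and 0 in clone 3, against 0.551%, 0.673% and 1.75% of all genes in these clones. On its other probe set CXCL8 was also past 2-fold, at 21.9% of the control mean in clone 1 and 49.4% in clone 2. The control clones spread widely there, and knockdown clone 2 (7.64) lay close to control clone 2 (7.81). Genes at least 2-fold above the control mean numbered 0, 0 and 1 (IL1A in clone 3), against 0.501%, 0.845% and 1.47% of all genes. The other probe set of IL1A was not past 2-fold in any clone. Each of these counts rests on 1 array, and no test was made between single clones. Over the 9 genes, the root mean square difference between 2 clones was 1.97 between knockdown clones 1 and 3, 1.02 between clones 1 and 2 and 1.18 between clones 2 and 3, while any pair of control clones differed by 0.11 to 0.20. Over all genes the same pairs of knockdown clones differed by 0.47, 0.32 and 0.42, and the control clones by 0.15. Over the 9 genes, IL1A (4.81 and 9.41) and IL1B (8.05 and 10.92) weighed most between knockdown clones 1 and 3. CXCL1 (9.47 and 9.33) added little.

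Genes whose profile over the 6 clones was nearest to that of IL1B, the gene of the group with the largest SD over all arrays, were sought among 13035 genes with a mean above 5. Likeness was the root mean square difference of log2 values after each gene was centred on its own mean. The nearest were SCG5 (0.46), a secretory granule chaperone, NDRG1 (0.65), a gene induced by hypoxia, the immediate early factor FOS (0.71), APCDD1L (0.73) and the glucose transporter SLC2A3 (0.77). SCG5 read 6.07, 5.42 and 7.67 in knockdown clones 1, 2 and 3, against 8.23, 8.31 and 8.35 in control clones 1, 2 and 3. Within the group itself, CCL20 (0.91) and CXCL8 (1.02) were nearest to IL1B. For IL1A, added after the values were seen, the nearest was the leukocyte actin-bundling protein LCP1 (0.42), at 5.23, 6.65 and 8.62 in knockdown clones, against 6.40, 6.30 and 6.53 in control clones. It was followed by TMEM178A (0.57), the RAP1 effector APBB1IP (0.57), ARMCX2 (0.60) and the noncoding transcript MAP4K3-DT (0.63). The points share the same 6 arrays, and nothing is drawn from likeness about function or control.

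**Figure D3:**
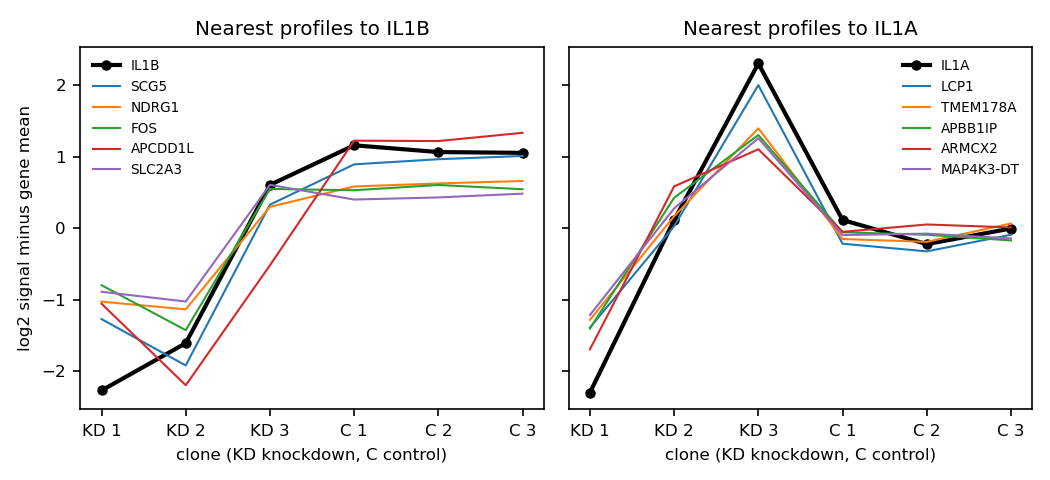
Log2 signal minus the gene's own mean over knockdown clones 1 to 3 (KD) and control clones 1 to 3 (C), for IL1B (left) and IL1A (right) in black and the 5 genes with the nearest profiles in colour. The IL1B profiles are low in knockdown clones 1 and 2, and the IL1A profiles step upward over the knockdown clones, which have no order, around level controls.

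On the receiving side, IL1RAP, the accessory chain of the IL1 receptor, read 7.25, 7.01 and 7.02 in knockdown clones 1, 2 and 3, against 7.92, 7.86 and 7.92 in control clones 1, 2 and 3. All knockdown clones were lower, including clone 3, and by limma its log2 signal fell by 0.80 (SE 0.10, adjusted p = 0.0316), while its second probe set gave −0.34 (adjusted p = 0.382). IRAK3, a kinase-like inhibitor of IL1 receptor signalling, had a mean of 6.40 ± 0.09 in knockdown clones and 7.17 ± 0.06 in control clones (SD, n = 3 each), with no overlap, and fell by 0.77 (SE 0.09, adjusted p = 0.0316). Its other probe sets gave −0.27 and −0.16 without passing. CCR1, a receptor of CCL5 among other ligands, fell by 1.04 (SE 0.15, adjusted p = 0.0458), at 3.84 to 4.23 in knockdown clones and 4.91 to 5.35 in control clones, where the low signal makes the size uncertain. With all CCR1 probe sets averaged the difference was smaller, at −0.69 (adjusted p = 0.0296 in limma). IL1R1, the signalling receptor of IL1, read 6.58 to 6.98 in knockdown clones and 6.91 to 7.10 in control clones (−0.22, adjusted p = 0.498), and the neutrophil receptor CXCR2 was dim at 2.81 to 2.93 in knockdown clones and 2.65 to 2.72 in control clones; both were named for their ligands, outside the naming rule. The calls of IL1RAP, IRAK3 and CCR1 were lost without any one control clone (adjusted p from 0.230 to 0.263) and without knockdown clone 2 (0.0744 to 0.0986), with differences that stayed between −1.12 and −0.74. They and that of ICAM1, given next, were also lost with the covariate for RNA quality (0.184 to 0.301) and with the replicate block (0.135 to 0.153). The differences with the covariate were −0.96 for IL1RAP, −0.88 for IRAK3, −0.81 for CCR1 and −2.25 for ICAM1. The replicate block left the differences themselves unchanged. With an intensity trend CCR1 (0.0521), IL1RAP (0.0503) and ICAM1 (0.0503) just missed the threshold, and IRAK3 missed it when its probe sets were averaged (0.0560).

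Counted by list, 2 of 13 measured receptors fell and 0 rose (median −0.17). Of 24 genes of the IL1 family and its signalling 1 fell and 0 rose (median −0.10). Among all genes 0.42% were called lower and 0.319% higher. At an unadjusted limma p under 0.05, 2 receptors were lower and 1 higher, and 2 IL1 genes were lower and 2 higher. The shares of all genes at that p, for these and the next lists, were 7.67% lower and 9.11% higher. Of 28 other chemokines 0 passed in limma, and an unadjusted p under 0.05 was found for 4 lower and 0 higher genes (median −0.02). The nearest to passing were CCL28 (−0.66, SE 0.14, adjusted p = 0.0965) and CCL26 (−0.59, SE 0.13, adjusted p = 0.10), both lower in every knockdown clone. CXCL5, CXCL6, PPBP and PF4V1, which share the chromosome 4 cluster and were named for that outside the naming rule, read 2.44 to 3.05 in knockdown clones and 2.37 to 2.92 in control clones. Of 25 other NF-kB targets 1 fell, ICAM1, the adhesion molecule that leukocytes bind, and 0 rose (median −0.20). The knockdown mean was lower for 20 of them and higher for 5, and 52.4% of all genes had a lower mean. At an unadjusted limma p under 0.05, 7 of these targets were lower and 2 higher. NFKBIZ and IL11, named next, were higher, unlike most of this list. NFKBIZ, an NF-kB cofactor named here after its values were seen, was higher in every knockdown clone on both probe sets. The brighter gave 0.71 (SE 0.12, adjusted p = 0.0621), and the other passed in limma at 0.89 (SE 0.13, adjusted p = 0.0430) but does not represent the gene in the count. IL11, a cytokine likewise named after its values were seen, read 8.39, 8.73 and 10.86 in knockdown clones 1, 2 and 3, against 7.10, 6.94 and 6.91 in control clones 1, 2 and 3 (2.34, SE 0.57, adjusted p = 0.128). It was above the controls in every knockdown clone and highest in clone 3, as IL1A was. ICAM1 read 8.36, 7.31 and 8.10 in knockdown clones, against 9.66, 9.64 and 9.61 in control clones (−1.71, SE 0.24, adjusted p = 0.0430), and unlike IL1B it was lower by more than 1 log2 unit in clone 3 as well. Its call was lost without any one control clone (adjusted p from 0.254 to 0.279). Of 10 genes that control cytokine mRNA stability 0 passed in limma, and an unadjusted p under 0.05 was found for TIAL1, which was higher, and ZFP36L1, which was lower (median 0.05). TIAL1, an RNA-binding translational repressor, gave 0.36 (SE 0.10, adjusted p = 0.179), and ZFP36L1, an mRNA decay factor, gave −0.48 (SE 0.19, adjusted p = 0.325). These sizes depended on the probe set. With all probe sets averaged TIAL1 gave 0.20 and ZFP36L1 −0.28. Without _x_at, _s_at and _a_at probe sets they gave 0.05 and −0.56.

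**Figure D4:**
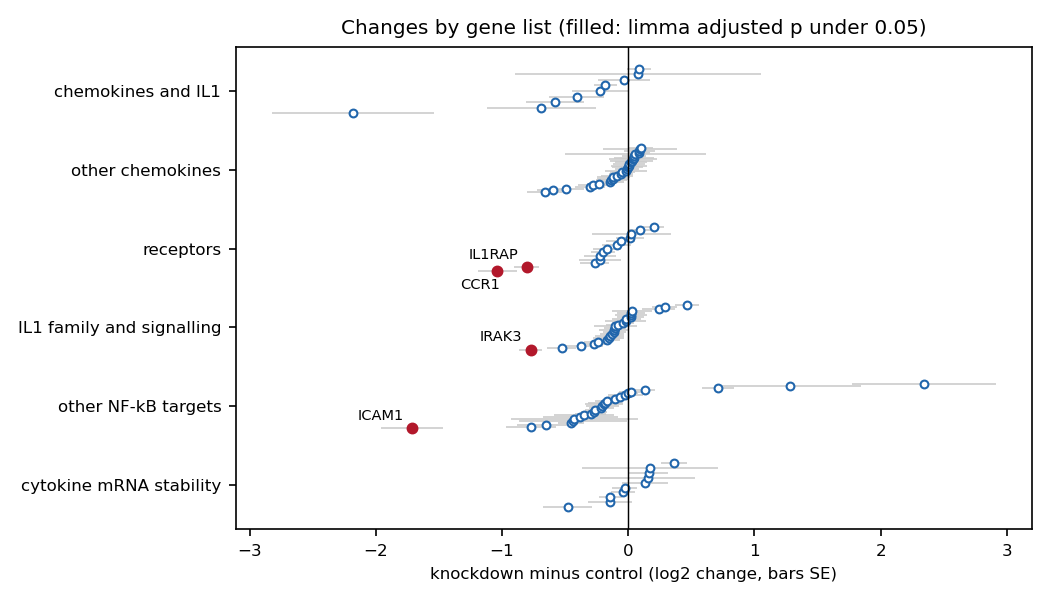
Knockdown minus control change on the log2 scale with its SE for each measured gene of 6 lists, filled where the limma adjusted p is under 0.05 and open otherwise. ICAM1, CCR1, IL1RAP and IRAK3 are the 4 filled points, all below 0, and the lowest open point is IL1B at −2.18.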

How the data were processed

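Total RNA of 6 clones was hybridised to Affymetrix arrays after 3′ in vitro transcription labelling, as the labels' protocols state. Deposited values are on the log2 scale, and the submitters' processing notes name RMA and Affymetrix Expression Console 1.0. RMA corrects background, makes the arrays' distributions equal and combines the probes of each set, so a shift shared by most genes would not be seen. No detection calls are given, and the 3 arrays per group limit the precision.

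Names came from the platform annotation, with symbols updated by gene identifier to RefSeq (GRCh38.p14): 41091 of 54675 carried 1 symbol, 1801 several and 11721 none, and 62 were controls. A probe set with several symbols named no gene. One listed gene is not reported here. The test was limma 3.58.1 in R 4.3.3 (lmFit, then eBayes), group being the sole term, two-sided, with Benjamini-Hochberg adjustment over 54613 probe sets. Each gene was taken from the probe set of highest mean signal and called at an adjusted p under 0.05. The fit was tested on simulated data with the same spread in both groups. In the real data the median SD of the probe sets was 0.16 in knockdown and 0.09 in control clones. How the fit behaves under such unequal spread was therefore not tested.

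The genes and lists were chosen with earlier results of these data known. Named were all members, WASF3, up to 2 called genes per list or else up to 2 with the smallest p, and the 5 nearest profiles. Alternatives were the replicate number as a block, each clone left out, an intensity trend, array weights, a mean above 5, the mean of all probe sets, no _x_at, _s_at or _a_at probe sets, equal array medians and the RNA quality index as a covariate.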

Additional observations from a re-analysis of the deposited data

How the results depend on the processing

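The 9 genes kept their direction and side of the threshold under all alternatives but the following. IL1B passed with array weights (−2.48, adjusted p = 0.0209), when 1 of the 9 genes was called lower. IL1A turned to −0.12 with array weights and to −0.026 without _x_at, _s_at and _a_at probe sets, where CXCL2 turned to 0.21 and CCL5 to 0.048. Without those probe sets, IL1A, CXCL2 and CCL5 were each read from another, dimmer probe set. CXCL8 and CCL2 had no probe set left in that setting, and CCL2 none with a mean above 5. CCL5 was 0.053 with the mean of all probe sets, and CCL20 0.62 with the RNA quality index. The causes of the shifts with array weights and with the RNA quality index were not tested. With each clone left out in turn, 0 to 2 genes were called lower and 0 higher, both without knockdown clone 3. IL1B lay between −3.03 and −1.59, IL1A between −1.05 and 1.25, CXCL8 between −0.83 and −0.43, CXCL3 between −0.45 and 0.049, CCL5 between −0.25 and 0.18, CCL20 between −1.07 and −0.12, CXCL2 between −0.64 and −0.16, CXCL1 between −0.23 and −0.16 and CCL2 between 0.03 and 0.13.

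Over all genes, 63 higher and 83 lower became 0 and 3 with the replicate block, 19 and 44 with an intensity trend, 419 and 295 with array weights, 110 and 128 when all probe sets of a gene were averaged, 40 and 51 without _x_at, _s_at and _a_at probe sets, and 0 and 1 with the RNA quality index, and 97 were higher with a mean above 5. Leaving out single clones gave 0 to 784 higher and 2 to 441 lower. The same-numbered clones did not deviate together (correlations −0.07, −0.10 and −0.04). Differently numbered clones were not compared, so whether the numbers mark a batch was not tested. With the replicate block IL1B gave an adjusted p of 0.226.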
